A study of Mus musculus with 10 samples.

Results

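Fatty acid oxidation, lipolysis and peroxisome function were followed through 46 genes in RNAseq data of pancreatic islets from 2 obese mouse strains. The genes were taken by name from the gene table of 35214 genes and from the splicing table, which holds 13706 genes. All 46 have a row in both, and they account for 629 of 167895 events. They cover uptake and binding of fatty acids, their activation to acyl-CoA, the carnitine shuttle, mitochondrial and peroxisomal oxidation, electron transfer, protein import into peroxisomes, lipid droplet breakdown and the transcriptional regulators of these pathways.

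Islets of 5 male NZO mice, an obese strain prone to diabetes and labelled NZO/HiBomDife, were set against islets of 5 male B6-ob/ob mice, labelled C57BL/6J.V-Lepob/ob, which are obese through a mutation of the leptin gene. Both strains were fed a high-fat diet free of carbohydrate up to an age of 18 weeks and then a diet with carbohydrates, for 2 days according to the methods of the study. The labels name pancreas as the source, whereas the methods describe isolated islets. Strain and leptin genotype differ together between the groups and cannot be told apart.

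Fatty acids are taken up, bound by carrier proteins and linked to coenzyme A before they are burned or stored. Long chains enter mitochondria through the carnitine shuttle and are shortened there step by step, whereas very long and branched chains are first shortened in peroxisomes. Lipid droplets release stored fatty acids through a row of lipases. In β-cells both an oversupply of fatty acids and the loss of single enzymes of their oxidation are known to disturb insulin secretion.

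For each event the table holds the PSI (proportion spliced in, the share of transcripts from 0 to 1 that contain a stretch of RNA), with the mice of a strain pooled by the authors. There is 1 PSI per strain and no value per mouse. Hence, no spread between mice, no error and no test can be given for any difference below, and the depth behind each PSI is unknown. Differences are those of NZO minus B6-ob/ob islets, and an event was counted when the difference exceeded 0.1 in either direction. The level of a gene is its mean normalised count over all 10 libraries of both strains together, so that levels are not compared between the strains here.

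The β-cell markers ranged between mean normalised counts of 4777 for Pdx1 and 6676910 for Ins2, with Gcg of α-cells at 240204, Sst of δ-cells at 24410 and Ppy of PP cells at 68470. The 9 acinar markers lay between 1.08 and 402, the 5 endothelial markers between 1322 and 7678, the 6 leukocyte markers between 41.2 and 298, and the 5 ductal markers between 13.3 and 17721, the last being Spp1. Of the 5 adipocyte markers, Adipoq, Cfd and Lep were listed at 0 and the highest, Plin1, at 4.38. Since these levels pool both strains, they do not show whether cell composition differed between NZO and B6-ob/ob islets, and its part in the PSI differences was not tested.

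The exons printed here are coding exons described below, of which those of Ehhadh and Lipe differed between the strains by more than 0.1 and those of Acsl6 and Pex5 by less. In Acsl6, which encodes an acyl-CoA synthetase, a pair of neighbouring exons of equal length is known to be used in place of each other, and the capitals mark the positions at which they differ.
Acsl6 upstream exon, chr11:54336936-54337013: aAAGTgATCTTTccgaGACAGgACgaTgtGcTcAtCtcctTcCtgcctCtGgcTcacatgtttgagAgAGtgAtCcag
Acsl6 downstream exon, chr11:54337071-54337148: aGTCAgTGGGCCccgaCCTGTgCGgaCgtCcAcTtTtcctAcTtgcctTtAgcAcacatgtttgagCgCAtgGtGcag
Both lie on the plus strand of GRCm38 (mm10), are 78 nt long and hold 26 codons each, with an intron of 57 nt between them. They are identical at 46 of 78 positions (59.0%) and differ at 32. A further Acsl6 exon of 33 nt, chr11:54328402-54328434, is shown because its PSI differed most among the remaining exons of this gene.
Acsl6 exon of 33 nt: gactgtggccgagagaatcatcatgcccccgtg

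The coding exons that differed by more than 0.1 belong to Ehhadh, the peroxisomal bifunctional enzyme, and Lipe, the hormone-sensitive lipase, and the regulated exon of the import receptor Pex5 is given beside them. All 3 lie on the minus strand.
Ehhadh exon 2, chr16:21777799-21777902, 104 nt: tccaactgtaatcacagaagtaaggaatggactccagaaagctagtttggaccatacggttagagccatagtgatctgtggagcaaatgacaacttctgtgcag
Lipe exon 3, chr7:25385437-25385527, 91 nt: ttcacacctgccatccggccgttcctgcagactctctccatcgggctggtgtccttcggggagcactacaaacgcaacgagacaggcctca
Pex5 exon 8, chr6:124404133-124404243, 111 nt: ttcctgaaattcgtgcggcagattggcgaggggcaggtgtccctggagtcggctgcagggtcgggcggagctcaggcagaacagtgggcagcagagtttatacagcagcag
The lengths of the Ehhadh and Lipe exons are not multiples of 3, so that skipping either alone shifts the reading frame. The Pex5 exon holds 37 codons and keeps it. Exon numbers follow GENCODE M21.

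A pair of sites with very short distances completes the sequences. In Acsl4, an arachidonate-preferring synthetase, capitals mark the 3 nt that are added or left out at an alternative 3' splice site, within chrX:142351602-142351631 on the minus strand.
Acsl4 splice site: taccaatgccaagAAGaaaaacgctatggc
In Slc25a20, the carnitine-acylcarnitine translocase, capitals mark the 10 nt by which its upstream start lies before the downstream one, shown with the 60 bases before it, chr9:108662028-108662117 on the plus strand (RefSeq promoter sequence, GRCm38.p6).
Slc25a20 start: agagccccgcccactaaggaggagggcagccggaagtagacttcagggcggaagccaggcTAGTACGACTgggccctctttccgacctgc
The RefSeq start of the gene, base 108662136, lies downstream of both.

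The levels of the genes spanned a wide range. Of 46 genes, 43 reached a mean normalised count of 100 and 21 reached 1000, with a median of 917, whereas the 22701 genes of the table with a count above 0 had a median of 133. Levels between genes were compared per kb of the longest annotated transcript, where the median was 316 and the range 8.36 to 4407. In bulk islets, fewer cells of a type and less RNA per cell cannot be told apart.

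**Figure D1:**
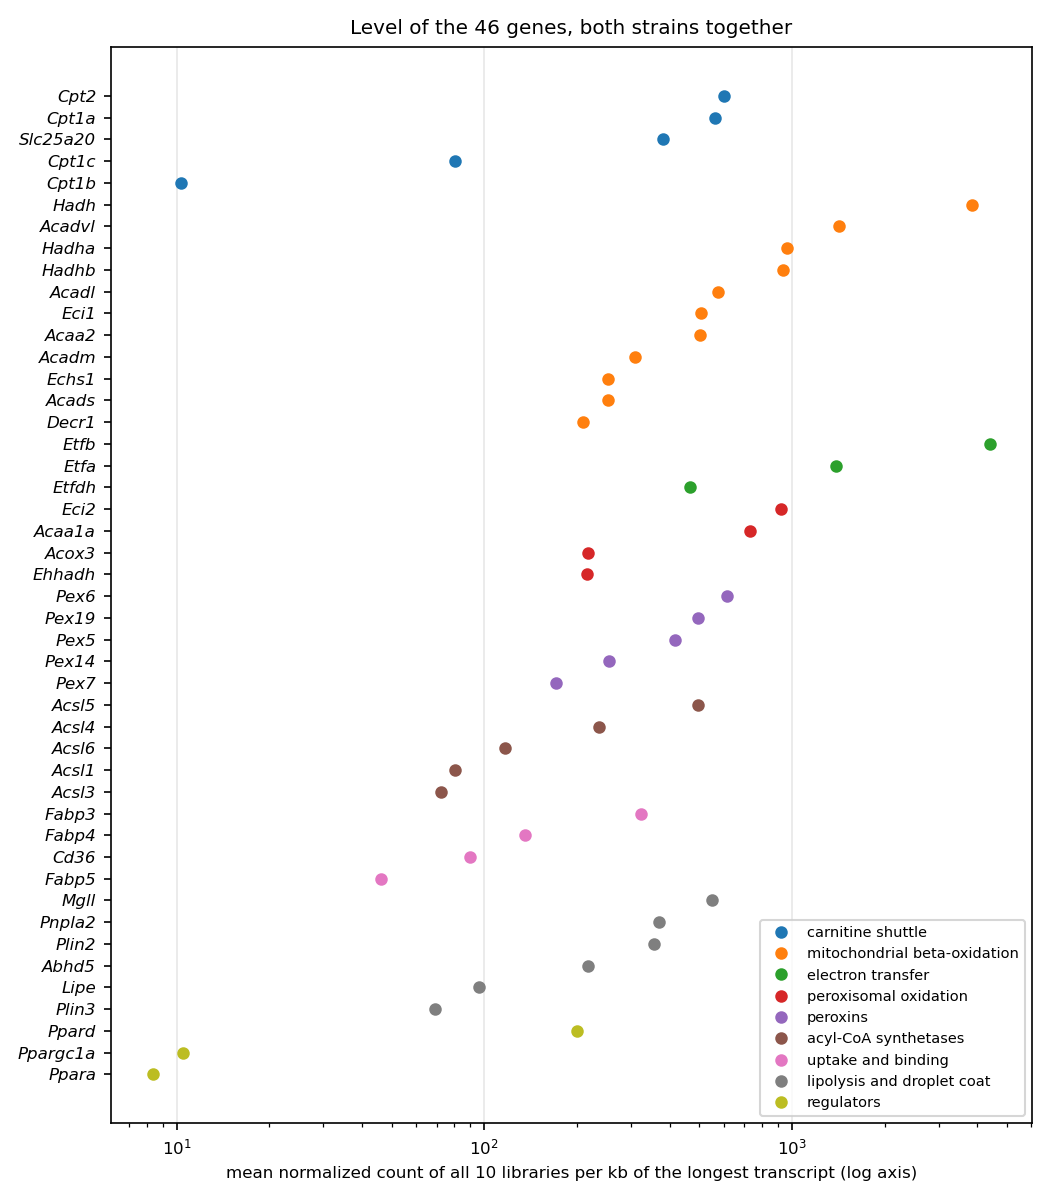
Mean normalised count of all 10 libraries per kb of the longest transcript (log axis) for each of the 46 genes, grouped by role, with NZO and B6-ob/ob libraries averaged together. Points are single values without error. The longest transcript can include introns that are mostly spliced out or end stretches of low PSI, which lowers the value per kb, so the order of genes is approximate. The electron transfer flavoprotein subunit Etfb (4407) and the β-oxidation enzyme Hadh (3834) lead, and Ppargc1a (10.5), Cpt1b (10.3) and Ppara (8.36) are lowest.

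Etfb, the β-subunit of the flavoprotein that accepts electrons from the acyl-CoA dehydrogenases, had the highest level per kb (4407), followed by Hadh (3834), the short-chain 3-hydroxyacyl-CoA dehydrogenase whose loss in humans causes excess insulin secretion. By count, not corrected for length, Hadh was first with 14383, against 3935 for Etfb. The longest Hadh transcript has 3751 nt. An annotated Hadh intron of 3129 nt had a PSI of 0.000343 in NZO islets and 0.000388 in B6-ob/ob islets. If the longest transcript holds this intron, the level of Hadh per kb is too low. The order of Etfb and Hadh is therefore not established. Acadvl, the dehydrogenase of very long chains, followed at 1417 per kb, and Etfa, the partner subunit of Etfb, at 1388 per kb. Hadha and Hadhb, the subunits of the mitochondrial trifunctional protein, were close to each other with 965 and 938 per kb. The 11 genes of mitochondrial β-oxidation had a median of 506 per kb and none was below 209. Annotated introns of Hadhb (2594 nt) and Echs1 (up to 1052 nt) had a PSI of at most 0.025 in either strain. An end stretch of 1122 nt in Hadha had at most 0.0041. If the longest transcripts hold these stretches, the levels of Hadha, Hadhb and Echs1 per kb are too low. The closeness of Hadha and Hadhb and the median are therefore approximate.

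In the carnitine shuttle, Cpt1a, the liver form of the outer membrane transferase, was at 561 per kb, Cpt1c, the form best known from the brain, at 80.1, and Cpt1b, the muscle form, at 10.3. Cpt2, the inner membrane transferase, was at 603 and Slc25a20 at 380 per kb. Among the acyl-CoA synthetases Acsl5 was highest with 493 per kb, before Acsl4 with 237, Acsl6 with 117, Acsl1 with 80.4 and Acsl3 with 72.4. No spread stands behind these values, so the order of neighbours such as Acsl1 and Acsl3 is not established. The longest Acsl6 transcript has 5807 nt, and an end stretch of 3213 nt had a PSI of 0.148 in NZO islets and 0.278 in B6-ob/ob islets. If the longest transcript holds this stretch, the level of Acsl6 per kb is too low. The order of the synthetases after Acsl5 is therefore not established.

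Of the uptake and binding genes, the heart-type binding protein Fabp3 was at 323 per kb, Fabp4 at 136, the fatty acid translocase Cd36 at 90.1 and Fabp5 at 46.3. This order depends on the transcript length. By count, Fabp4 (574) was above Fabp3 (266). The longest transcripts of Fabp4 (4231 nt) and Fabp5 (3238 nt) include introns with a PSI of at most 0.0577 and 0.0464 in either strain. Their levels per kb are thus too low, and the order of these genes is not established. Fabp4 and Cd36 are known from adipocytes, macrophages and endothelium. Their counts of 574 and 306, not corrected for length, stood beside adipocyte markers of at most 4.38, leukocyte markers of at most 298 and endothelial markers of at least 1322. The share of these cells in the Fabp4 and Cd36 signal was not tested.

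The droplet lipases Mgll (548 per kb), which cleaves monoacylglycerol, and Pnpla2 (371), the adipose triglyceride lipase, were above Lipe (96.5). The droplet coat protein Plin2 was at 356, Abhd5, the activator of Pnpla2, at 217, and Plin3, another coat protein, at 68.9 per kb. The peroxins lay between 171 per kb for Pex7 and 614 for Pex6, and the peroxisomal enzymes between 216 for Ehhadh and 924 for the isomerase Eci2. The longest Pex7 transcript has 8099 nt and includes an end stretch of 6889 nt. That stretch had a PSI of 0.0431 in NZO islets and 0.0474 in B6-ob/ob islets. The level of Pex7 per kb is thus too low, and its place among the peroxins is not established. The fatty acid-sensing receptor Ppard was at 199.8 per kb, well above its relative Ppara at 8.36 and the coactivator Ppargc1a at 10.5.

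Between NZO and B6-ob/ob islets, 53 of the 629 events (8.43%) differed by more than 0.1, against 8.73% of all events in the table. They fell in 23 of 46 genes (50%), against 44% of all genes with an event. Both shares are near the background, so the group as a whole was not set apart by its number of differing events. Most of them were not splicing differences in the narrow sense, because 46 of the 53 were tandem starts or tandem ends. These are neighbouring stretches of a first or last exon set apart by alternative transcription starts or polyadenylation sites. The remaining 7 were in 7 different genes. Starts and ends prevailed over all genes as well, with 4573 tandem starts and 6681 tandem ends among 14650 differing events.

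By role, in groups formed after the values were seen and to be read against the same 44% of all genes, differing events were found in 4 of 5 acyl-CoA synthetases, 3 of 5 carnitine shuttle genes, 3 of 4 peroxisomal enzymes, 4 of 6 lipolysis and droplet genes and all 3 regulators. Of the regulators, Ppara with a count of 28.5 and Ppargc1a with 67.6 are below a count of 100, which leaves Ppard. Such events were found in 2 of 5 peroxins, 2 of 11 genes of mitochondrial β-oxidation, 1 of 3 electron transfer genes and 1 of 4 uptake genes. The 23 genes without one were Hadh, Hadha, Hadhb, Acadl, Acadm, Acads, Acaa2, Decr1 and Eci1 of mitochondrial β-oxidation, Etfa and Etfb, Cpt1a and Cpt1b, Acaa1a, Pex5, Pex6 and Pex14, Acsl5, Fabp3, Fabp4 and Fabp5, and Abhd5 and Plin3. The genes hold between 1 and 30 events, with a median of 13 against 10 over all genes, and a gene with more events has more chances to be counted.

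The exons of these genes were nearly always included. Of 408 cassette exons, 386 (94.6%) had a PSI over 0.9 in both strains, against 87.3% of all exons in the table. Their median PSI was 0.991 in NZO islets, against 0.994 in B6-ob/ob islets. Over all exons of the table it was 0.981 in NZO islets, against 0.987 in B6-ob/ob islets. Only 3 of 408 exons (0.735%) differed by more than 0.1, against 1.48% of all exons, and these 3, in Ehhadh, Acsl3 and Lipe, were lower in NZO islets, the direction found for 0.993% of all exons. None was higher by as much, against 0.485% of all exons. By any amount, 312 of the 408 exons (76.5%) were lower in NZO islets, against 72% of all exons. By annotation, 337 of the exons were coding, 60 held coding sequence and UTR, 9 were UTR and 2 belonged to noncoding transcripts.

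**Figure D2:**
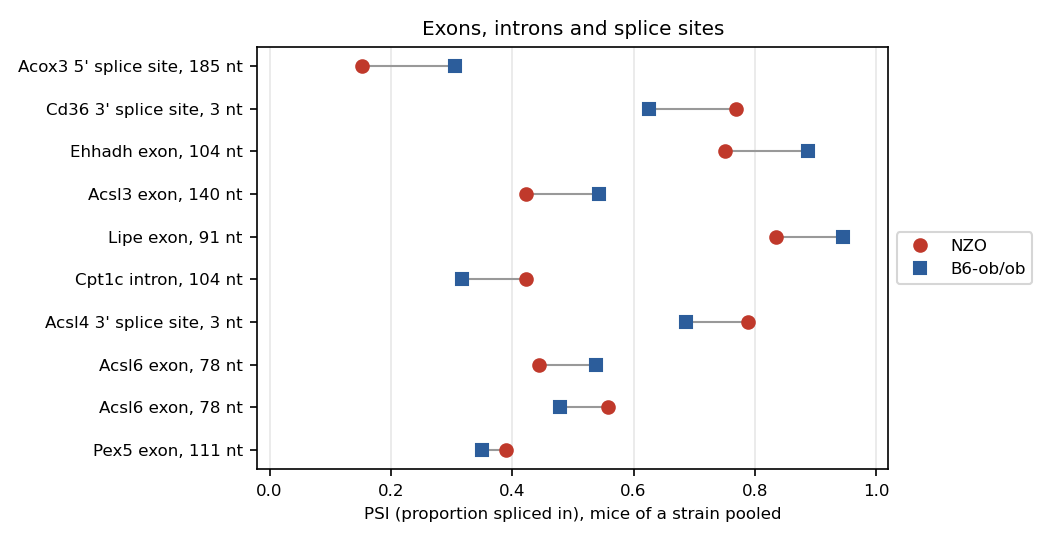
PSI (0 to 1) of exons, introns and splice sites in NZO islets (red circles) and B6-ob/ob islets (blue squares), each 1 value with the mice of the strain pooled and no error. The 3 exons of Ehhadh, Acsl3 and Lipe lie lower in NZO islets, the Cpt1c intron and the Cd36 and Acsl4 splice sites lie higher, and the Acsl6 exons of 78 nt change order between the strains.

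Exon 2 of Ehhadh, coding and shown above, had a PSI of 0.751 in NZO islets, against 0.887 in B6-ob/ob islets, a difference of -0.136. Ehhadh carries the hydratase and dehydrogenase steps of peroxisomal β-oxidation. This exon differed more than any other of the 408. The other 4 Ehhadh exons were over 0.9 in both strains.

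Exon 3 of Lipe, also printed above, had a PSI of 0.835 in NZO islets, against 0.945 in B6-ob/ob islets. Lipe hydrolyses diacylglycerol in droplets. Its count of 358 was below the median of the genes. Lipe is a marker of adipocytes as well, and the adipocyte markers were between 0 and 4.38.

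Exon 2 of Acsl3, a synthetase of the endoplasmic reticulum and the droplet surface, had a PSI of 0.423 in NZO islets, against 0.544 in B6-ob/ob islets. This exon of 140 nt, chr1:78663141-78663280, lies in the 5' UTR, so that the coding sequence is the same with and without it. It was among the few exons of the group that islets of both strains left out in a large share of transcripts.

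Of the exons that differed less than the limit, exon 6 of Cpt1c (138 nt, chr7:44970405-44970542) had a PSI of 0.865 in NZO islets, against 0.954 in B6-ob/ob islets. The following exon of 75 nt had 0.899 in NZO islets, against 0.966 in B6-ob/ob islets. Both keep the reading frame. In Cd36, exon 13 (55 nt, chr5:17787686-17787740) had 0.919 in NZO islets, against 0.981 in B6-ob/ob islets.

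Exon 8 of Acadl (114 nt), the long-chain dehydrogenase, had 0.964 in NZO islets, against 0.998 in B6-ob/ob islets, the largest exon difference in mitochondrial β-oxidation. The largest in the electron transfer genes was 0.992 in NZO islets, against 0.997 in B6-ob/ob islets, for an exon of 147 nt in Etfdh, the oxidoreductase that hands electrons to ubiquinone. In Ppard, the regulator with a count over 100, it was an exon of 44 nt in the 5' UTR, rarely included, with 0.0328 in NZO islets, against 0.0208 in B6-ob/ob islets. These differences are small, and without a spread it cannot be said whether mice differ as much within a strain.

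Pex5 recognises the common import signal of peroxisomal enzymes. Its long form, which contains the exon of 37 codons printed above, also binds Pex7, the receptor of the second import signal that is used by thiolase. The exon had a PSI of 0.390 in NZO islets, against 0.351 in B6-ob/ob islets, a difference of 0.0393. Islets of both strains thus held the short form in the larger share of transcripts. Pex7 itself had exon PSI medians of 0.993 in NZO islets, against 0.997 in B6-ob/ob islets, and Acaa1a, the peroxisomal thiolase, had 0.998 in both.

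The Acsl6 exon pair, chosen for description after its values were seen, was among the exons of intermediate PSI. The upstream exon had 0.443 in NZO islets, against 0.538 in B6-ob/ob islets. The downstream exon had 0.558 in NZO islets, against 0.478 in B6-ob/ob islets. Thus the downstream exon was the more used one in NZO islets and the upstream exon in B6-ob/ob islets, although neither difference passed 0.1. The alternative exons are known to encode the gate domain of the enzyme, which bears on the fatty acid it accepts. As one replaces the other, their differences are not independent.

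Most exons of Acsl6 were lower in NZO islets. Of 22 exons, 19 were lower, with a median PSI of 0.952 in NZO islets, against 0.991 in B6-ob/ob islets. The exon of 33 nt had 0.898 in NZO islets, against 0.982 in B6-ob/ob islets. The preceding exon of 179 nt had 0.933 in NZO islets, against 0.992 in B6-ob/ob islets. The 3 that were higher in NZO islets were the downstream exon of the pair and the leading exons of 207 nt (0.0666 in NZO islets, 0.0158 in B6-ob/ob islets) and 169 nt (0.0688 in NZO islets, 0.0182 in B6-ob/ob islets), both in the 5' UTR.

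**Figure D3:**
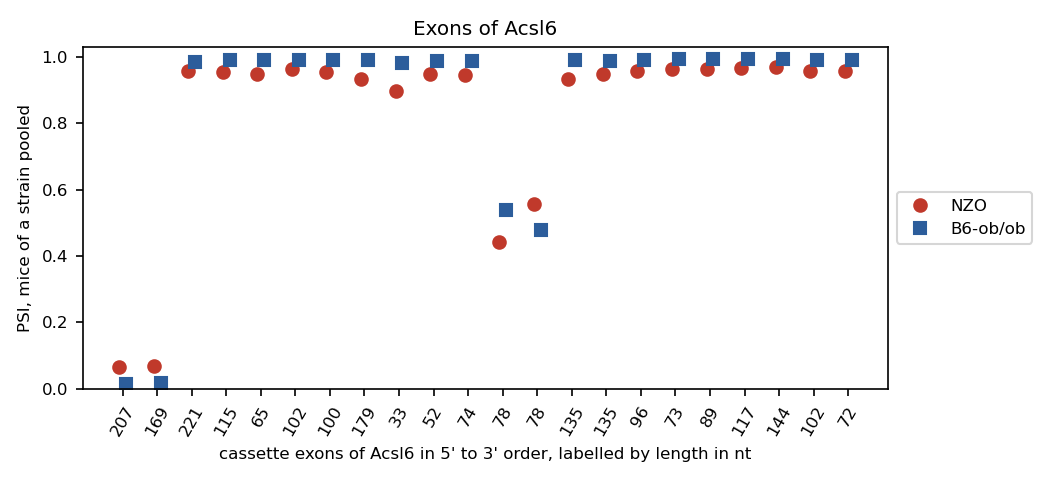
PSI (0 to 1) of the 22 cassette exons of Acsl6 from 5' to 3', labelled by their length in nt, in NZO islets (red circles) and B6-ob/ob islets (blue squares), mice of a strain pooled and no error. The pair of 78-nt exons lies near the middle of the scale and changes order, and the exon of 33 nt is the lowest of the otherwise included exons in NZO islets (0.898 in NZO islets, 0.982 in B6-ob/ob islets).

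Seen per gene, the median exon difference was negative, that is lower in NZO islets, in 35 of 46 genes and positive in 11. The share of all genes with a negative median was not computed. As 72% of all exons were lower in NZO islets, this direction is not particular to these genes. The most negative was that of Cd36, with all 14 exons lower and medians of 0.944 in NZO islets, against 0.988 in B6-ob/ob islets, followed by Acsl6 and by Acsl1, with all 17 exons lower and medians of 0.962 in NZO islets, against 0.981 in B6-ob/ob islets. In Cpt1a, which was expressed at a higher level, all 17 exons were lower as well, but by little, with medians of 0.989 in NZO islets, against 0.996 in B6-ob/ob islets. In Hadh all 6 exons were higher in NZO islets, by at most 6e-05. The largest positive value was that of Cpt1b, a single exon with 0.913 in NZO islets, against 0.867 in B6-ob/ob islets at a count of 29.9.

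The size of the median exon difference went with the level of the gene, with a Spearman correlation of -0.60 over the 46 genes between the count and the absolute median difference. This is a description without a p-value, because the genes share the same libraries, and fewer reads stand behind a PSI at low counts. Exons of a gene share transcripts and are not independent either.

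**Figure D4:**
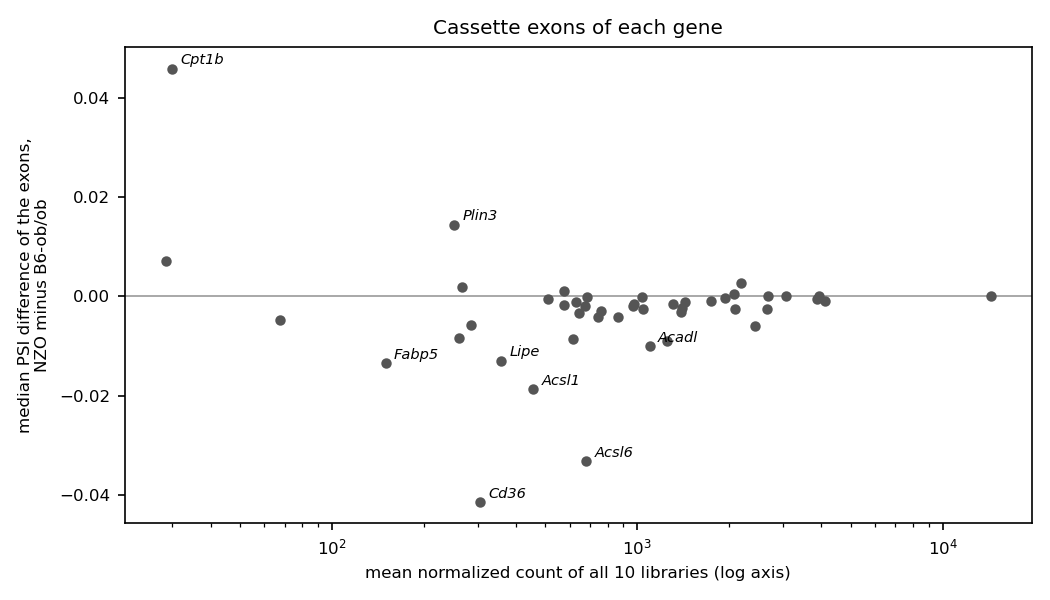
Median PSI difference of the cassette exons of each of the 46 genes, NZO minus B6-ob/ob islets, against the mean normalised count of all 10 libraries (log axis), 1 point per gene and no error. Genes with high counts lie near 0, and Cd36 and Acsl6 are the lowest points.

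Of 29 retained introns, 7 were lower in NZO islets (24.1%, against 35.8% of all introns) and 22 higher. A single one differed by more than 0.1 (3.45%), against 11.5% of all introns. It was an intron of 104 nt in Cpt1c, chr7:44965267-44965370, with a PSI of 0.423 in NZO islets, against 0.317 in B6-ob/ob islets. Another Cpt1c intron of 608 nt had 0.304 in NZO islets, against 0.215 in B6-ob/ob islets, while a further one of 495 nt had 0.120 in NZO islets, against 0.157 in B6-ob/ob islets. Cpt1c encodes the form of the transferase that sits in the endoplasmic reticulum of neurons, and its count was 261.

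Of 10 alternative 3' splice sites, 2 differed by more than 0.1 (20%), against 14.9% of all such sites, and both concern 3 nt. In Cd36 the 3 nt lie in a 5' UTR exon, chr5:17828982-17828984, and had 0.768 in NZO islets, against 0.625 in B6-ob/ob islets. In Acsl4 the 3 nt shown above, chrX:142351616-142351618, had 0.788 in NZO islets, against 0.686 in B6-ob/ob islets, in a stretch that is coding in some transcripts and UTR in others. In both genes the 3 nt had the higher PSI in NZO islets. In Acsl4 they adjoin a longer alternative stretch of 290 nt, with 0.330 in NZO islets, against 0.273 in B6-ob/ob islets. Transcripts with the longer stretch hold the 3 nt as well, so the PSI of the 3 nt does not describe a choice of 3 nt alone. The Acsl4 difference of 0.102 was just past the limit.

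Of 10 alternative 5' splice sites, 1 (10%) differed by more than 0.1, against 15.4% of all. It was a stretch of 185 nt in the 5' UTR of Acox3, the oxidase of branched chains, chr5:35583135-35583319, with 0.152 in NZO islets, against 0.305 in B6-ob/ob islets. None of 7 alternative first exons and none of 4 alternative last exons differed by more than 0.1, against 7.72% and 9.81% of all. Of each kind of splice site, 6 of 10 were higher and 4 (40%) lower in NZO islets. Over all genes, 50.8% of alternative 3' splice sites and 46.9% of alternative 5' splice sites were lower.

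Tandem starts and ends gave most of the counted events, as they did over all genes. The stretches of a set complement each other, and in 43 of 56 sets of starts or ends their PSI summed to 1 within 0.05 in both strains. A set was therefore read as relative shares of the starts or ends within that set. They are not shares of all transcripts of a gene, because Acox3 and Ppard have several end sets that each summed to about 1. Of 81 tandem starts 20 differed by more than 0.1 (24.7%, against 23.3% of all), in 11 of 27 sets, against 33.5% of all start sets. Of 80 tandem ends 26 did (32.5%, against 29.4% of all), in 13 of 29 sets, against 38.5% of all end sets. The shares of stretches were near the background in both.

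**Figure D5:**
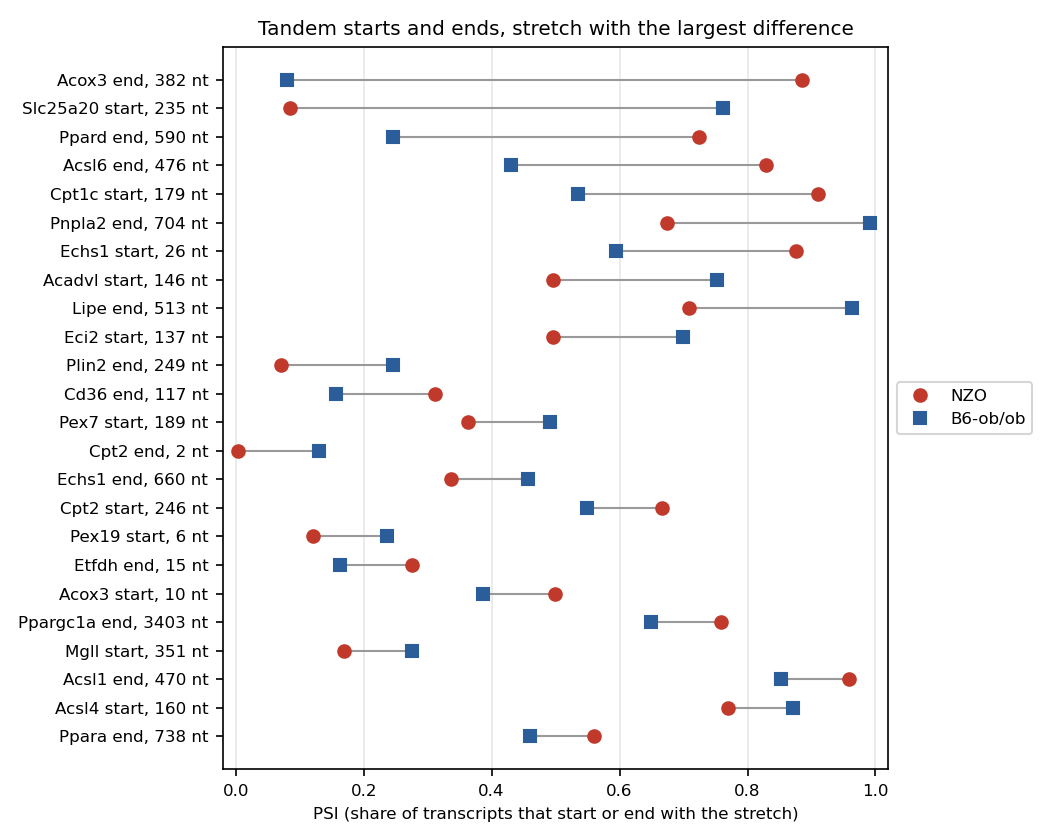
PSI of the stretch with the largest difference in each of the 24 sets of tandem starts or ends with a difference over 0.1, in NZO islets (red circles) and B6-ob/ob islets (blue squares), mice of a strain pooled and no error. The Acox3 end (0.886 in NZO islets, 0.0800 in B6-ob/ob islets) and the Slc25a20 start (0.0848 in NZO islets, 0.762 in B6-ob/ob islets) span most of the scale.

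A large difference in PSI often meant a small distance in bases. Whether the reads resolve starts or ends a few bases apart was not tested, nor was the effect of the reference genome on them in NZO islets. The mean position of the start or end, weighted by the PSI of the stretches, was therefore computed, a measure chosen after the values were seen. Of the 24 sets with a counted stretch, 18 moved by less than 50 nt on average. No start set moved by 50 nt or more, against 4.99% of all start sets (2.56% downstream and 2.43% upstream), and 10 end sets did (34.5%), against 28.8% of all end sets. In 6 of them the mean end lay further downstream in NZO islets (17.4% of all end sets) and in 4 further upstream (11.4% of all).

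The largest differences in PSI were of this short kind. In the upstream of the Acox3 end sets, the end after 382 nt, chr5:35611488-35611869, had a PSI of 0.886 in NZO islets, against 0.0800 in B6-ob/ob islets. The end 7 nt further had 0.123 in NZO islets, against 0.920 in B6-ob/ob islets. The mean end moved by -4.55 nt. The larger PSI thus fell on different stretches in NZO and B6-ob/ob islets, whose ends lie only 7 nt apart. The stretches of this set summed to 1.13 in NZO islets, against 1.08 in B6-ob/ob islets, so they were not strict shares. Acox3 has a further end set downstream, chr5:35612015-35613801, whose distal stretch had 0.998 in NZO islets, against 0.950 in B6-ob/ob islets. The share of all Acox3 transcripts that end in the upstream set is therefore not given by these values.

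In Slc25a20 the start with the 10 nt printed above had 0.914 in NZO islets, against 0.238 in B6-ob/ob islets. The start at the following stretch of 235 nt, which is annotated as the first coding exon, had 0.0848 in NZO islets, against 0.762 in B6-ob/ob islets. The mean start moved by -6.77 nt, that is upstream in NZO islets. The upstream start is annotated for a noncoding transcript of the gene.

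Pnpla2, whose product starts the breakdown of triglycerides, ended after a stretch of 704 nt with 0.675 in NZO islets, against 0.991 in B6-ob/ob islets, and 2 nt further with 0.322 in NZO islets, against 0.00938 in B6-ob/ob islets. Lipe ended after 513 nt with 0.709 in NZO islets, against 0.963 in B6-ob/ob islets, and 16 nt further with 0.282 in NZO islets, against 0.0366 in B6-ob/ob islets. In both lipases the more distal end was thus used more in NZO islets, and the mean ends lay 2.64 nt and 3.26 nt further downstream.

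The starts of the enzymes of mitochondrial β-oxidation also moved by few bases. Echs1, the short-chain enoyl-CoA hydratase, started at a stretch of 26 nt with 0.875 in NZO islets, against 0.595 in B6-ob/ob islets, and at the 7 nt before it with 0.125 in NZO islets, against 0.405 in B6-ob/ob islets. Acadvl started at a stretch of 146 nt with 0.496 in NZO islets, against 0.752 in B6-ob/ob islets, and at the 3 nt before it with 0.504 in NZO islets, against 0.249 in B6-ob/ob islets. The set moved by 2.06 nt in Echs1 and by -0.76 nt in Acadvl. The start stretches of Echs1 summed to 1.07 in NZO islets, against 1.09 in B6-ob/ob islets, so they were not strict shares.

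Longer distances were found for the starts of Cpt1c and Eci2. Cpt1c started at the downstream stretch of 179 nt, chr7:44974597-44974775, with 0.910 in NZO islets, against 0.534 in B6-ob/ob islets, and at the 76 nt before it with 0.0900 in NZO islets, against 0.458 in B6-ob/ob islets. The mean start lay 28.2 nt further downstream in NZO islets. Eci2 started at a stretch of 137 nt with 0.496 in NZO islets, against 0.699 in B6-ob/ob islets, and at the following 12 nt with 0.484 in NZO islets, against 0.2997 in B6-ob/ob islets, with a mean start 29.4 nt further downstream in NZO islets. All these stretches of Cpt1c and Eci2 are annotated as UTR. The start stretches of Eci2 summed to 1.12 in NZO islets, against 1.07 in B6-ob/ob islets, so they were not strict shares.

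The longest moves were those of ends. In Acsl6 the last exon ended after its first 476 nt, chr11:54361060-54361535, with 0.828 in NZO islets, against 0.431 in B6-ob/ob islets, 4 nt further with 0.0344 in NZO islets, against 0.249 in B6-ob/ob islets, and after another 3213 nt of UTR with 0.148 in NZO islets, against 0.278 in B6-ob/ob islets. The mean end lay 620 nt in NZO and 1048 nt in B6-ob/ob islets after the most proximal end, a difference of -429 nt. By this measure, Acsl6 transcripts of NZO islets had shorter 3' UTRs on average. The end stretches of Acsl6 summed to 1.07 in NZO islets, against 1.01 in B6-ob/ob islets, so they were not strict shares in NZO islets.

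Ppard had a pair of ends, 590 nt apart, within chr17:28295496-28296971. The distal end had 0.724 in NZO islets, against 0.245 in B6-ob/ob islets, with 0.276 in NZO islets and 0.751 in B6-ob/ob islets for the proximal end. The mean end thus lay 282 nt further downstream in NZO islets. Both stretches are annotated in noncoding transcripts of the gene, so these values are not read as those of the receptor mRNA. A further set of Ppard ends moved by 70.4 nt downstream.

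The coactivator Ppargc1a ended more distally in NZO islets, with 0.759 in NZO islets, against 0.649 in B6-ob/ob islets for the stretch of 3403 nt, and a mean end 297 nt further downstream, at a low count of 67.6. In Ppara, with a count of 28.5, the mean end moved by -71.5 nt, that is upstream in NZO islets. Its first stretch, with 0.560 in NZO islets, against 0.460 in B6-ob/ob islets, was just inside the limit with a difference of 0.10009. The end stretches of Ppara summed to 1.07 in NZO islets, against 1.08 in B6-ob/ob islets, so they were not strict shares. The first end stretch of Abhd5, with 0.846 in NZO islets, against 0.747 in B6-ob/ob islets, was just outside with 0.09966, although its mean end moved by -168 nt.

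Plin2, which coats lipid droplets, ended after a coding stretch of 249 nt with 0.0703 in NZO islets, against 0.245 in B6-ob/ob islets. The stretch that holds the stop codon and the 3' UTR, 591 nt, had 0.929 in NZO islets, against 0.754 in B6-ob/ob islets. The mean end lay 103 nt further downstream in NZO islets. The early end belongs to a short annotated transcript.

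Among the other ends, a stretch of 117 nt in the 3' UTR of Cd36 had 0.312 in NZO islets, against 0.157 in B6-ob/ob islets, with a mean end 52.6 nt further downstream in NZO islets. Mgll moved by -95.6 nt and a second set of Acox3 by 57.4 nt, without a stretch that differed by more than 0.1 in either. Acsl1 moved by 49.2 nt, just below 50 nt. The remaining differences, in starts or ends of Pex7, Pex19, Cpt2, Echs1, Etfdh, Mgll, Acsl4 and Acox3, lay between -0.128 and 0.126.

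Of 80 further genes of these pathways, among them Crat, Hsd17b4, Pparg and additional peroxins, all had a row in the gene table and 69 had events. In these, 56 of 871 events (6.43%) and 22 of 69 genes (31.9%) passed 0.1, against the same 8.73% and 44%. Of 578 exons 3 passed (0.519%, against 1.48%), 2 lower and 1 higher in NZO islets, and all 3 were in Abcd4, a transporter of the ABCD family that acts in cobalamin release from lysosomes. Its exon of 92 nt had 0.511 in NZO islets, against 0.786 in B6-ob/ob islets, its exon of 209 nt 0.599 in NZO islets, against 0.809 in B6-ob/ob islets, and its exon of 117 nt 0.903 in NZO islets, against 0.801 in B6-ob/ob islets. An intron of the fatty acid transporter Slc27a1 had 0.371 in NZO islets, against 0.210 in B6-ob/ob islets, and an intron of Dgat1, which forms triglycerides, had 0.342 in NZO islets, against 0.221 in B6-ob/ob islets.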

How the data were processed

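Islet RNA of 5 NZO and 5 B6-ob/ob mice was sequenced, 1 library per mouse. Named in the submitters' processing notes are mm10 (genome), DESeq2 and Salmon, to which the methods add Whippet and Python scripts. Versions are not given in the sources used here. The deposited gene table holds a mean signal per gene, the count divided by DESeq2 size factors and averaged by the authors over all 10 libraries. The deposited splicing table holds the PSI of each event as a fraction, 1 per strain, with the mice pooled by the authors. The tables also hold the authors' own comparisons (log2 fold change and adjusted p of genes, PSI difference and probability of events), which were not used, nor were the sheets of genes and events selected from them.

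No model was fitted and no test was run, since there are no values per mouse, and the depth per sample is unknown. PSI of B6-ob/ob was subtracted from that of NZO islets, and differences over 0.1 in size were counted and set beside the share of all events or genes. Counting was tested on simulated data. Exons were placed on GENCODE M21 (GRCm38), which also gave transcript lengths and exon sequences. The longest transcript can include retained introns and end stretches of low PSI. A RefSeq promoter was found for 40 of 46 genes. The mm10 reference is that of C57BL/6J, the background of the B6-ob/ob mice, and how this affects PSI in NZO islets was not tested.

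Events named in full were, among genes with a mean normalised count of at least 100, the 25 with the largest difference, at most 3 per gene, and the exon with the largest difference of each role. Events outside this rule, among them the Acsl6 exons, the Acsl4 splice site and the Cpt1c introns, were chosen after their values were seen, as were the role groups. The genes, the list of 80 further genes and the cell type markers were chosen with earlier results of these data known. Python 3.11.15 with pandas 2.3.3, numpy 2.4.6, scipy 1.17.1 and matplotlib 3.10.9 was used. Alternatives were other limits of 0.2 and 0.05, count minima of 100 and 1000, fewer event types, a mean PSI from 0.1 to 0.9, stretches of at least 10 nt and, chosen after seeing the data, counting a set of starts or ends once or by its mean position.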

Additional observations from a re-analysis of the deposited data

How the results depend on the processing

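No paired analysis was possible because the PSI of a strain is pooled over its mice and the replicate numbers of the strains do not overlap, and for the same reason no mouse could be left out. The 53 differing events became 19 at a limit of 0.2 (3.65% of all events), 91 at 0.05 (16.4%), 23 with a count of at least 1000 (6.16%), 7 for exons, introns and splice sites only (2.54%), 3 for cassette exons only (1.48%) and 31 with each set of starts or ends counted once, an alternative chosen after seeing the data. The 23 genes became 10 at a limit of 0.2 (22.9% of all genes), 10 with a count of at least 1000 (40.6%), 7 without starts and ends (17.1%), 3 for cassette exons only (9.67%) and 14 when starts and ends had to move by 50 nt (32.8%), also chosen after seeing the data. A limit of 0.05 gave 29 genes (62.8% of all genes). Over all features under the same setting, the shares were 7.99% of events and 45.2% of genes for a count of at least 100, which gave 50 events in 21 genes, 38.8% and 58.7% for a mean PSI from 0.1 to 0.9, which gave 49 in 22, and 7.88% and 43.1% for stretches of at least 10 nt, which gave 41 in 22. The median level was 917 as a count and 316 per kb of transcript. Fewer events are tested in most of these settings by construction. With 1 pooled value per strain and an unknown depth, small PSI differences, above all at low counts, cannot be set against the variation between mice.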
